A study of Homo sapiens with 4 samples.

Results

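To examine the cell–cell adhesion genes of T24 cells, the cadherins, the desmosome genes and the α- and p120-type catenins were taken from an RNAseq comparison of TET1-CD overexpression cells with control cells. Genes were chosen by symbol only. They were all genes named CDH followed by a number, apart from 2 classical cadherins not analysed here, together with the desmogleins (DSG), the desmocollins (DSC), desmoplakin (DSP), the plakophilins (PKP), plakoglobin (JUP) and the catenins CTNNA1 to CTNNA3, CTNND1 and CTNND2. This gave 39 of the 57879 genes listed, namely 21 cadherins, 7 desmosomal cadherins, 6 plaque proteins and 5 catenins. T24 is a human bladder carcinoma line grown in RPMI with serum, and the TET1-CD group carries a lentiviral construct for the catalytic domain of TET1, an enzyme that oxidizes 5-methylcytosine in DNA. The group labelled control (EV, empty vector) carries the vector alone, and each group has 2 libraries of total RNA. Transduced cells were selected with puromycin as a stable population, and the labels name every source sample as induced without naming an inducer. The labels do not say whether the libraries of a group came from separate cultures, so p-values measure only the spread between these libraries, which may be technical.

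Cadherins are transmembrane proteins that bind cadherins of the neighbouring cell through calcium-dependent repeats. In adherens junctions their tails bind β-catenin or plakoglobin and p120-catenin, and α-catenin links the complex to actin. In desmosomes, desmogleins and desmocollins take the place of classical cadherins, and plakoglobin, plakophilins and desmoplakin connect them to keratin filaments. The urothelium, from which bladder carcinomas arise, relies on both kinds of junction to hold its layers together.

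The 4 libraries held 17442143 to 20295266 estimated fragments, and the totals of the groups overlapped. TET1, of which the construct holds a part, had 111 and 83 counts in the EV pair, against 2939 and 3310 in the TET1-CD pair (log2 fold change 5.02, standard error, SE, 0.08). These counts do not separate the construct from the cell's own gene. The epithelial keratins KRT7, KRT8 and KRT18 were abundant, with 10759 to 22638 counts in any library, while KRT19 had 66 to 169 and EPCAM 46 to 86. KRT5 and KRT14 had at most 2 counts. VIM, encoding vimentin, had more counts than any of these keratins, with 43958 to 63997. Of 4 endothelial markers none had enough counts to be tested, TEK was at 0 throughout, and the list summed to 0.04 to 0.13 FPKM. Of 6 leukocyte markers, PTPRC had at most 2 counts. The list summed to 14.4 and 19.1 FPKM without and 13.4 and 13.1 with TET1-CD, mostly through CD68 with 12.54 to 17.87 FPKM. ITGAM was the only member of that list past the test, with 22 and 29 counts without and 3 and 8 with TET1-CD. It passed the filter on counts only through its EV libraries. The 6 fibroblast markers summed to 1.68 and 1.54 FPKM with the empty vector and to 5.02 and 3.97 with TET1-CD, mostly through COL1A1, which rose from 88 and 70 to 266 and 314 counts, while DCN and PDGFRA had at most 3 counts. The part of these marker levels in the results given here was not tested. As in any bulk measurement, fewer cells with a transcript and less RNA per cell cannot be told apart.

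Only part of the 39 genes gave appreciable counts. Levels were compared as FPKM, the authors' counts per kilobase of transcript, scaled to library size, here summed over the transcripts of each gene. CTNNA1, which encodes αE-catenin, had the highest level of the 39 genes, with 156.48 and 156.39 FPKM in the EV pair, against 158.1 and 164.66 in the TET1-CD pair. DSG2, the desmoglein of simple and transitional epithelia, followed with 70.14 and 66.32 without and 70.39 and 71 with TET1-CD. CDH13, a cadherin that is anchored by a lipid and has no tail for catenins, had 68.71 and 56.09 without and 52.24 and 59.59 with TET1-CD. The CDH13 and DSG2 levels overlapped in the EV libraries. CTNND1, encoding p120-catenin, was near 49 FPKM in each library, with a range of 48.4 to 49.75. Next came PKP3 with 21.81 to 32.35 FPKM and JUP with 18.93 to 22.26, which overlapped each other. PKP4 (12.87 to 20.06), DSC3 (12.38 to 17.21) and DSP (12.91 to 15.75) likewise overlapped one another. PKP2 (7.2 to 8.48) lay above DSC2 (5.19 to 5.59), CDH4 (3.51 to 5.88) and CDH24 (3.56 to 5.6), and the ranges of these last genes overlapped. All other members stayed under 1.2 FPKM in every library.

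**Figure D1:**
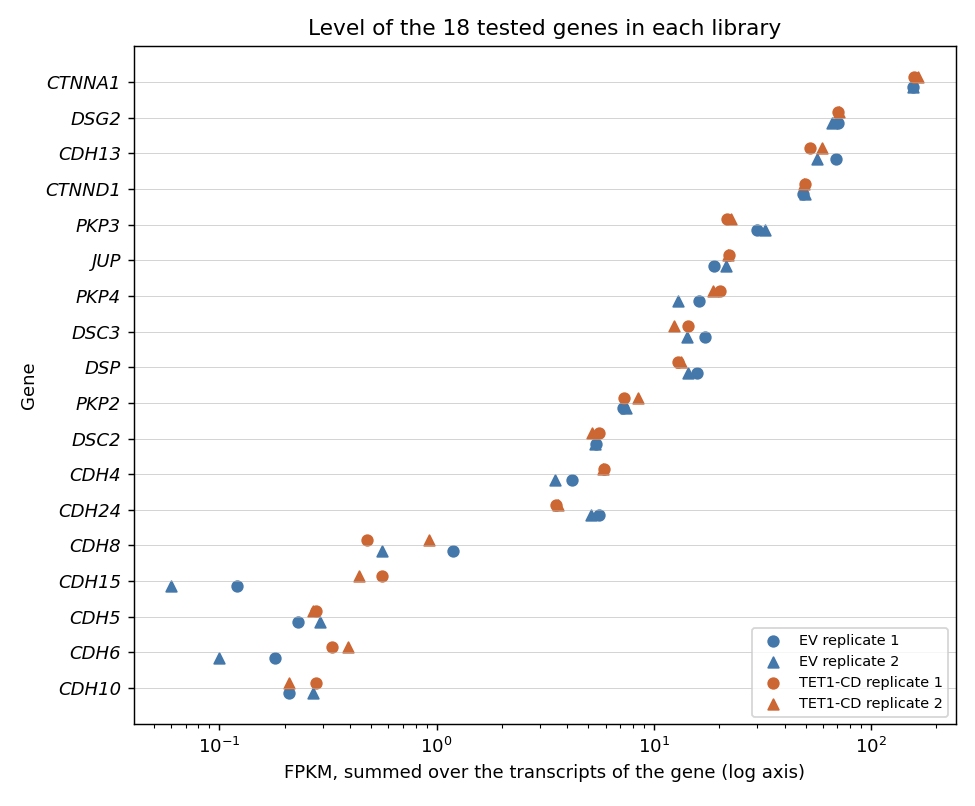
FPKM of the 18 tested genes (horizontal log axis) in each of the 4 libraries, with genes ordered by their mean. Blue symbols are EV and orange symbols TET1-CD libraries, circles replicate 1 and triangles replicate 2. CTNNA1 lies at 156.39 FPKM or above in every library, and CDH24 and CDH4 change places between the groups.

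Genes were tested when they held enough counts under edgeR's filterByExpr, which kept 14573 genes and 18 of the 39 members. These were 8 cadherins, 3 desmosomal cadherins, 5 plaque proteins and 2 catenins. Of the 21 members left out, 18 had at most 3 counts in any library, and the other three were CDH3, PKP1 and CTNNA3. With an adjusted p under 0.05 by edgeR's quasi-likelihood test, 3 of the 18 tested members were higher in TET1-CD cells (CDH15, CDH4 and PKP4) and 3 were lower (PKP3, CDH24 and CDH13). This is 16.7% in each direction, against 10.0% of all tested genes that were higher and 9.61% that were lower. CDH15 is counted here although it passed the filter only through its TET1-CD libraries. Each share rests on 3 genes, and a difference from the share of all genes was not tested. At a fold change of 2 in addition, 1 member was higher, CDH15, against 2.72% of all genes. None was lower by edgeR at that fold change, against 1.04% of all genes, and 0 were lower with an unadjusted p under 0.05 in place of the adjusted one, against 1.54%. At an adjusted p under 0.05 alone, DESeq2 called CDH4 and PKP4 higher and PKP3 and CDH24 lower, against 4.72% and 4.54% of all genes. With the fold change of 2 in addition it called 0 members in either direction, against 1.59% higher and 0.503% lower. The TET1-CD pair lay wholly above the EV pair for 5 members and wholly below it for 7, where 30.8% and 30.2% of all genes do so. The median log2 fold change of the tested members was 0.01, and that of all genes 0.00. The median size of the change regardless of sign was 0.24 for the members and 0.16 for all genes.

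**Figure D2:**
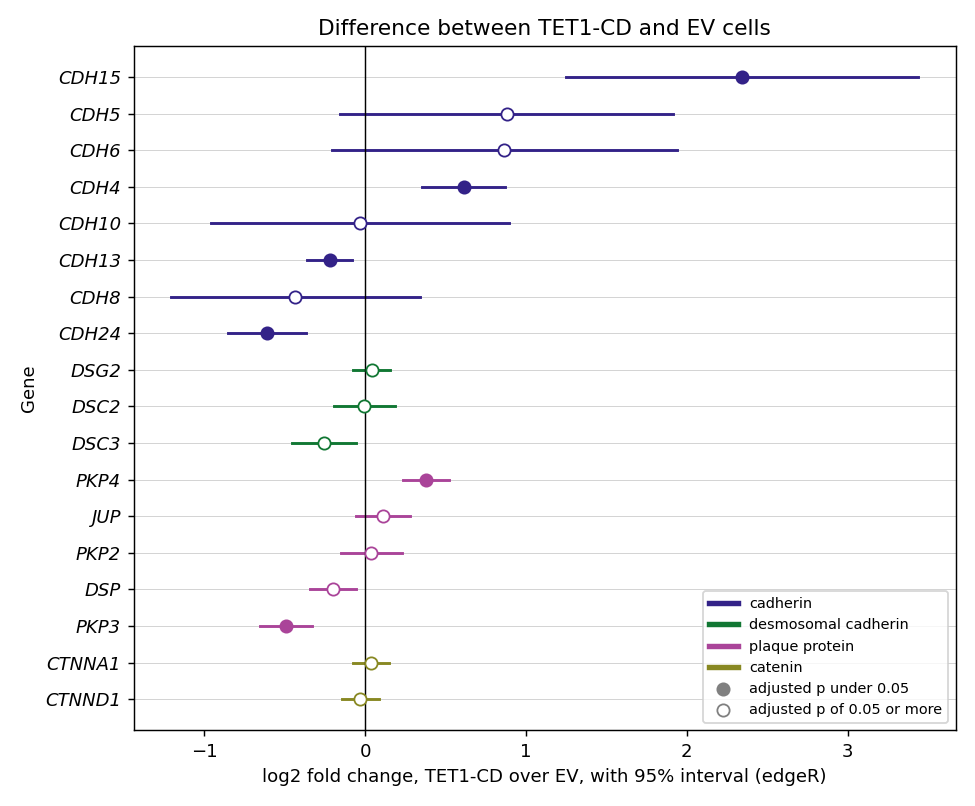
Log2 fold change of TET1-CD over EV cells (horizontal axis) for the 18 tested genes, with 95% intervals from edgeR as lines and colours for the class of the gene. Filled points have an adjusted p under 0.05, and these are CDH15, CDH4, CDH13, CDH24, PKP4 and PKP3. CDH15 has the largest value, 2.35, and a wide interval, while CTNNA1 and CTNND1 sit at 0.03 and -0.03 with narrow ones.

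Among the cadherins, the muscle cadherin CDH15 (M-cadherin) showed the largest fold change on very low counts. It lies on chromosome 16 from 89238175 to 89261900 on GRCh37. CDH15 had 7 and 3 counts in the EV pair, against 27 and 24 in the TET1-CD pair, so the groups did not overlap. The log2 fold change of 2.35 had a standard error of 0.49 and an edgeR adjusted p of 0.00923, or 5.08-fold with a 95% interval of 2.38 to 10.8. CDH15 passed the filter on counts only through its TET1-CD libraries. The log2 fold change of CDH15 was 2.18 without TET1-CD replicate 1 and 2.51 without TET1-CD replicate 2, and the call was lost in both fits. With DESeq2 its adjusted p was 0.0645. The call therefore needed both TET1-CD libraries and depended on the tool, although the direction did not change. Its level remained at 0.56 FPKM or lower.

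CDH4 (R-cadherin, first described in retina, chromosome 20 from 59827482 to 60515673) gave 472 and 314 counts with the empty vector, against 539 and 645 with TET1-CD. After TMM normalization the mean was 387 ± 68.4 counts (SD, n = 2) without and 594 ± 28.8 (SD, n = 2) with TET1-CD. CDH4 rose by 0.61 on the log2 scale (SE 0.12, edgeR adjusted p 0.00541), which is 1.53-fold with an interval of 1.28 to 1.83. The EV libraries lay further apart than the TET1-CD libraries, and the omission of one or the other EV library gave log2 fold changes of 0.80 and 0.45. CDH24, a type II cadherin that binds catenins, went the other way. It gave 389 and 294 counts with the empty vector, against 212 and 228 with TET1-CD (chromosome 14, 23516271 to 23526747). CDH24 fell by 0.61 on the log2 scale (SE 0.11, edgeR adjusted p 0.0039), so that EV cells were 1.53-fold higher. Without TET1-CD replicate 2 the adjusted p was 0.0545. In counts CDH4 stood above CDH24 in every library. The order of these cadherins differed between the groups only in FPKM, which scales counts by transcript length. Their ratio was chosen after the values were seen and restates the 2 changes. The FPKM of CDH24 divided by that of CDH4 was 1.33 and 1.47 in the EV pair, against 0.605 and 0.62 in the TET1-CD pair (exact permutation test, two-sided, p = 0.333, the smallest that 2 libraries against 2 allow).

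CDH13 (T-cadherin, chromosome 16 from 82660408 to 83830204) was the only tested gene of the CDH series above 6 FPKM. It gave 3044 and 2420 counts with the empty vector, against 2095 and 2542 with TET1-CD. The normalized mean was 2710 ± 140 (SD, n = 2) without and 2325 ± 135 (SD, n = 2) with TET1-CD, without overlap. CDH13 was lower by a small amount, with a log2 fold change of -0.22 (SE 0.06, edgeR adjusted p 0.0356). The call was lost when either TET1-CD library was left out, which leaves 1 library in that group. The log2 fold change was then -0.16 without TET1-CD replicate 1 and -0.28 without TET1-CD replicate 2. With DESeq2 the adjusted p was 0.0732.

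The other tested cadherins were near the limit of detection. CDH5, the VE-cadherin of endothelium, gave 9 and 10 counts with the empty vector, against 13 and 22 with TET1-CD, and the fold change of 1.84 had an interval of 0.898 to 3.77. In FPKM it stood at 0.23 and 0.29 without and 0.28 and 0.27 with TET1-CD. CDH6, a cadherin of the developing kidney, gave 19 and 7 counts with the empty vector, against 16 and 31 with TET1-CD, and the groups overlapped. CDH8, a type II cadherin of the brain, gave 34 and 21 counts with the empty vector, against 19 and 21 with TET1-CD (log2 fold change -0.43, interval -1.21 to 0.34). CDH10, of the same subfamily, had 14 to 16 counts in each library. For these 4 genes the intervals reached from a fall to a rise, so no change was detected within them.

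Of the 13 cadherins that were not tested, CDH7, CDH9, CDH17, CDH19 and CDH22 were at 0 in every library. A count of 0 allows up to 3 counts per library, and this limit covers counting error only. CDH11, CDH12, CDH16, CDH18, CDH20, CDH23 and CDH26 had at most 3 counts in any library. CDH3, the P-cadherin of basal epithelial cells, had 7 counts in each EV library and 9 in each TET1-CD library. The ratio of the summed CDH3 counts was 1.31 with a 95% counting interval of 0.616 to 2.85.

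The desmosomal cadherins showed an all-or-none pattern along their gene cluster. All 7 genes lie on chromosome 18 of GRCh37 between 28569974 and 29128971, a stretch of 559.0 kb, with the desmocollins on the minus strand and the desmogleins on the plus strand. The genes at the ends were expressed. DSC3 and DSC2 stand at one end, with 15.7 and 5.39 FPKM on average in EV cells, and DSG2 at the other end with 68.2 FPKM. The 4 genes between them, DSC1, DSG1, DSG4 and DSG3, had at most 1 count in any library of either group. DSG1 and DSG3 are desmogleins of the upper and lower layers of stratified epithelia, DSC1 accompanies DSG1 in the upper epidermis, and DSG4 is known from hair. They were at the floor in TET1-CD cells too, and up to 3 counts per library cannot be seen at this depth.

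**Figure D3:**
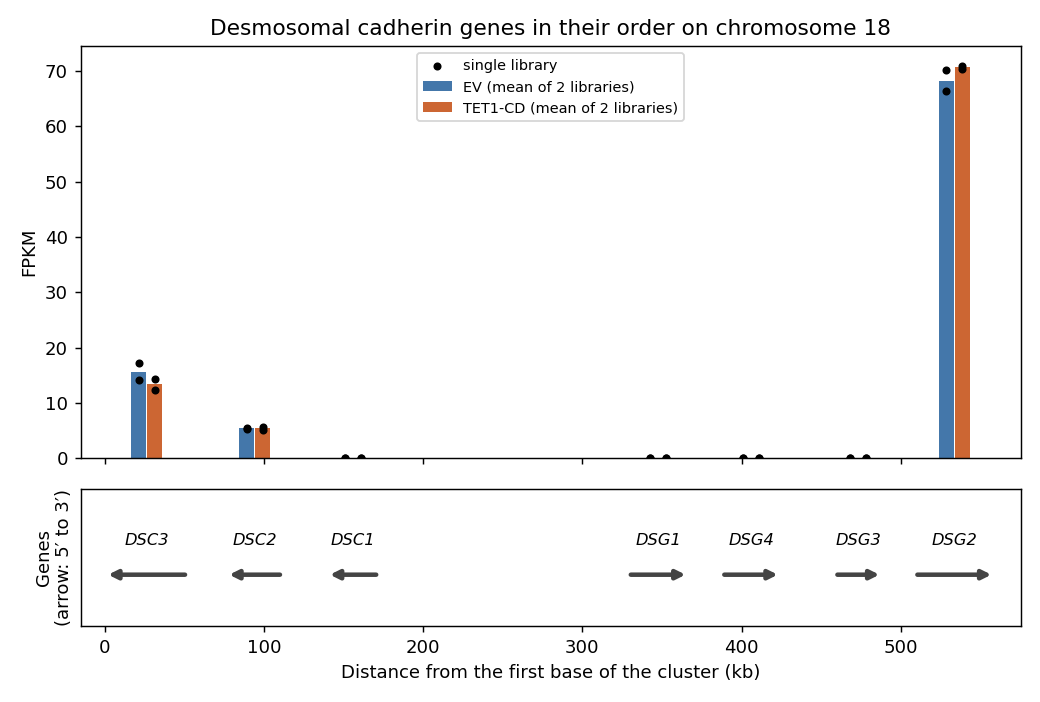
Mean FPKM of the 7 desmosomal cadherin genes in EV (blue) and TET1-CD (orange) cells, with black points for single libraries, drawn at their distance in kb from the first base of the cluster. Arrows below give the direction of transcription. DSC3 and DSC2 at the left end and DSG2 at the right end carry the signal, and the genes between 139.2 and 488.7 kb are at or near 0.

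The starts of these genes differ in CpG dinucleotides, the sites that TET1 acts on. The 250 bases before each start were taken from RefSeq (GRCh38.p14, a build other than that of the files, used here for sequence only), where 25 of the 39 members matched by symbol with 46 windows. Over all 35116 RefSeq windows of this length the median was 11 CpG sites, with quartiles of 3 and 23. DSG2 had 26 CpG sites, DSC3 had 18, and the starts of DSC2 had 19 and 12. DSC1 had 1, DSG1 had 3 and DSG3 had 4, and DSG4 was not matched. The windows of 2 expressed and 3 near-silent genes of the cluster are given here 5′ to 3′ because they show this contrast, with every CpG in capitals.
DSC3 (GRCh38.p14, chr18:31042743-31042992, minus strand): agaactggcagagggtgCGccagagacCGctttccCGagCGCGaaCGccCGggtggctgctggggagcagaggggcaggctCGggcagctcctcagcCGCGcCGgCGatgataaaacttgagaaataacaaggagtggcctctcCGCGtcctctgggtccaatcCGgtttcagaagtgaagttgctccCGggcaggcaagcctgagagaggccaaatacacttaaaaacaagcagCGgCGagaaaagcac
DSG2 (GRCh38.p14, chr18:31497927-31498176, plus strand): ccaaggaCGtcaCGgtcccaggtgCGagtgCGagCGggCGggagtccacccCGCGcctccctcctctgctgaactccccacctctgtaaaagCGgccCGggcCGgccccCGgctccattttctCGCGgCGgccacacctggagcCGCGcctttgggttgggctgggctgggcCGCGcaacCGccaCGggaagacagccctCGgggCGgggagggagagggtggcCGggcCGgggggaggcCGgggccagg
DSC1 (GRCh38.p14, chr18:31162857-31163106, minus strand): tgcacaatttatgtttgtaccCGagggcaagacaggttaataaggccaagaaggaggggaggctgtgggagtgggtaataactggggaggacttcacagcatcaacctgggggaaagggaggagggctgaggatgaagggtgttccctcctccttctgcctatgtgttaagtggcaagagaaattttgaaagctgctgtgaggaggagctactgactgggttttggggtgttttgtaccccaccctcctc
DSG1 (GRCh38.p14, chr18:31317910-31318159, plus strand): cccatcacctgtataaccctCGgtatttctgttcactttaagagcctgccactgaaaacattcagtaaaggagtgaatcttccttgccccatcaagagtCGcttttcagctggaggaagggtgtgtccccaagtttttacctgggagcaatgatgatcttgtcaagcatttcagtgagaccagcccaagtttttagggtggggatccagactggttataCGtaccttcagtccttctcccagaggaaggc
DSG3 (GRCh38.p14, chr18:31447491-31447740, plus strand): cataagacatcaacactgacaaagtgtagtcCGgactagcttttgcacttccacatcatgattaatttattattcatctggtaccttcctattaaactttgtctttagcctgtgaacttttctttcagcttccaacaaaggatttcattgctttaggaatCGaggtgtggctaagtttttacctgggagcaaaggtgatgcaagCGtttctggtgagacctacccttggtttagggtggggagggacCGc
Outside the cluster the CpG count did not sort expressed from silent members. DSP had 33 CpG sites in its window, and the windows of PKP4 had 23 and 22. However, CTNNA2, at 0 in every library, had 1 window with 39 sites and 3 with 2, and CDH7, also at 0, had windows with 33 and 6. No methylation was measured in these libraries, so the counts of CpG sites are a description of sequence alone.

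None of the expressed desmosomal cadherins passed the test on all 4 libraries. DSG2 gave 8301 and 6745 counts with the empty vector, against 7186 and 8087 with TET1-CD, a fold change of 1.03 with an interval of 0.947 to 1.11. DSC2 gave 554 and 468 counts with the empty vector, against 496 and 509 with TET1-CD, and its fold change of 0.996 had an interval of 0.873 to 1.14. For both genes the normalized counts of the groups overlapped. DSC3, a desmocollin of basal and stratified epithelia, gave 2401 and 1715 counts with the empty vector, against 1696 and 1683 with TET1-CD. The log2 fold change of -0.26 had a standard error of 0.09 and an edgeR adjusted p of 0.0683, with both TET1-CD libraries below both EV libraries after normalization. The 2 EV libraries of DSC3 were far apart, at 2033 ± 258 normalized counts (SD, n = 2). The value depended on single libraries. Without EV replicate 2 the log2 fold change was -0.38 (adjusted p 3.01e-04 from edgeR), but without EV replicate 1 it was -0.13 (0.182) and without TET1-CD replicate 2 it was -0.17 (0.445). With a replicate block the adjusted p was 0.0106. DSC3 exceeded DSC2 in each library, by 3.16 and 2.64 times without and 2.57 and 2.39 times with TET1-CD on the FPKM scale.

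Among the plaque proteins, PKP3 and PKP4 moved in opposite directions. PKP3 is the plakophilin found in desmosomes of nearly all epithelia, and it lies on chromosome 11 from 392614 to 404908. It gave 1241 and 1160 counts with the empty vector, against 769 and 926 with TET1-CD. The normalized mean was 1198 ± 75.4 (SD, n = 2) without and 850 ± 45 (SD, n = 2) with TET1-CD. PKP3 fell by 0.49 on the log2 scale (SE 0.07, edgeR adjusted p 0.00132), and EV cells were 1.41-fold higher. The adjusted p stayed between 2.9e-09 and 0.0415 over the alternatives, including the omission of each library.

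PKP4, also known as p0071, occurs in adherens junctions as well as in desmosomes and lies on chromosome 2 from 159313476 to 159539391. It gave 1201 and 940 counts with the empty vector, against 1285 and 1464 with TET1-CD. PKP4 rose by 0.38 on the log2 scale (SE 0.06, edgeR adjusted p 0.00327), which is 1.3-fold with an interval of 1.18 to 1.44. Without TET1-CD replicate 1 the adjusted p was 0.0515, and without TET1-CD replicate 2 it was 0.0563. PKP2, the plakophilin of simple epithelia and heart, gave 604 and 500 counts with the empty vector, against 505 and 618 with TET1-CD, and a fold change of 1.03 with an interval of 0.902 to 1.17. The ratios of the plakophilins were chosen after the values were seen, so they restate the changes of the single genes. PKP3 divided by PKP2, in FPKM, was 4.14 and 4.35 without and 3 and 2.68 with TET1-CD. PKP3 divided by PKP4 was 1.84 and 2.51 without and 1.09 and 1.22 with TET1-CD. That the groups did not overlap for either ratio follows largely from this choice. The exact permutation test gave p = 0.333 (two-sided), the smallest possible here, so it cannot add support.

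PKP1, the plakophilin of stratified epithelia, had too few counts for the test. It stood at 0 and 1 with the empty vector, against 5 and 11 with TET1-CD. The ratio of the summed counts was 16.3, with a 95% counting interval of 2.53 to 684 that does not include the spread between libraries. With no filter on low counts, edgeR gave an adjusted p of 0.0394. That setting also lowered the edgeR adjusted p of well-counted members, for PKP3 from 0.00132 to 2.9e-09. The value for PKP1 therefore adds no support. DSP, which ties the plaque to keratins (chromosome 6, 7541808 to 7586950), gave 3060 and 2357 counts with the empty vector, against 2138 and 2515 with TET1-CD. The log2 fold change of -0.20 had a standard error of 0.06 and an edgeR adjusted p of 0.0543, with an interval of -0.35 to -0.06. As for DSC3, the side of the threshold depended on EV replicate 2, without which the adjusted p was 8.84e-04. Without EV replicate 1 the log2 fold change of DSP was -0.13 (0.0821), without a TET1-CD library the adjusted p was 0.413 or 0.205, and with a replicate block it was 0.0468. JUP, the plakoglobin shared by both kinds of junction, gave 1187 and 1169 counts with the empty vector, against 1219 and 1304 with TET1-CD, and the groups overlapped (fold change 1.08, interval 0.961 to 1.21). Without EV replicate 2 its log2 fold change was 0.21 (adjusted p 0.0183 from edgeR), and without EV replicate 1 it was 0.0007 (0.995). The span that the files list for JUP also covers KRT17 on the same strand, with 77 and 83 counts without and 725 and 831 with TET1-CD. It also covers HAP1 on the same strand and EIF1 on the opposite strand.

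Neither tested catenin passed the test. CTNNA1 gave 10197 and 8764 counts with the empty vector, against 9023 and 10202 with TET1-CD. Its fold change was 1.02 with an interval of 0.947 to 1.11. CTNND1 gave 5720 and 4899 counts with the empty vector, against 4936 and 5341 with TET1-CD, and a fold change of 0.979 with an interval of 0.904 to 1.06. These intervals leave out a rise above 1.11-fold or a fall below 0.904-fold. The neural forms CTNNA2 and CTNND2 had at most 2 counts in any library, and CTNNA3, the form of heart and testis, had at most 4. β-catenin itself (CTNNB1), which is not a member of this set, had a log2 fold change of -0.05 (SE 0.06).

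Within CTNND1, transcripts were also compared by their start codon. p120-catenin is made from 4 alternative start codons, of which the first gives the longest protein, typical of motile and mesenchymal cells, and the third a shorter protein, typical of epithelial cells. Transcripts with complete coding sequences were grouped by the start codon that GENCODE release 44 (on GRCh37) gives them, at positions 57558951, 57559113, 57563085 and 57569218 of chromosome 11. The first start took 80.1% and 69.4% of the CTNND1 counts in the EV pair, against 71.5% and 69.5% in the TET1-CD pair. The third start, with 8 transcripts, took 16.5% and 15.9% without and 24.2% and 25.9% with TET1-CD, without overlap (exact permutation test, two-sided, p = 0.333, the smallest possible). In counts this was 943 and 778 without and 1196 and 1386 with TET1-CD. The start codons were chosen after the values were seen. Among the tested transcripts of the third start, the lowest edgeR adjusted p was 0.443. Transcript counts are estimates, and the uncertainty of assigning fragments to similar transcripts was not modelled, here or for the splice forms below. Its part in the difference between the groups was not tested. The second start stayed under 3.7% in each library. The fourth start went from 0.752% to 12.1% between the EV libraries and from 0.00823% to 1.57% between the TET1-CD libraries. Libraries of the same group thus differed widely for this start.

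The splice forms of the desmocollins and of desmoplakin kept their order. Desmocollins are made as a long a-form, whose tail binds plakoglobin, and a short b-form. For DSC2 the a-form (901 residues) took 64.7% and 64.1% of counts without and 81.6% and 66.7% with TET1-CD. The higher value came from TET1-CD replicate 1 alone. For DSC3 the a-form (896 residues) took 57.2% and 55.4% without and 62.8% and 57% with TET1-CD. The long form of DSP (2871 residues) held 83.5% to 93.6% of its counts in all 4 libraries, and the groups overlapped. The forms of PKP4 with 1192 and 1149 residues took 42% to 46.3% and 29.9% to 33.9%, also with overlap. When all 43213 transcripts with enough counts were tested one by one with edgeR, 62 belonged to members. None of these passed an adjusted p of 0.05, and 11 had an unadjusted p under 0.05, against 0.00231% and 11.2% of all transcripts. DESeq2 called 3 member transcripts, against 4.56% of all, namely those with most counts of PKP3, CDH13 and PKP4, each in the direction of its gene.

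**Figure D4:**
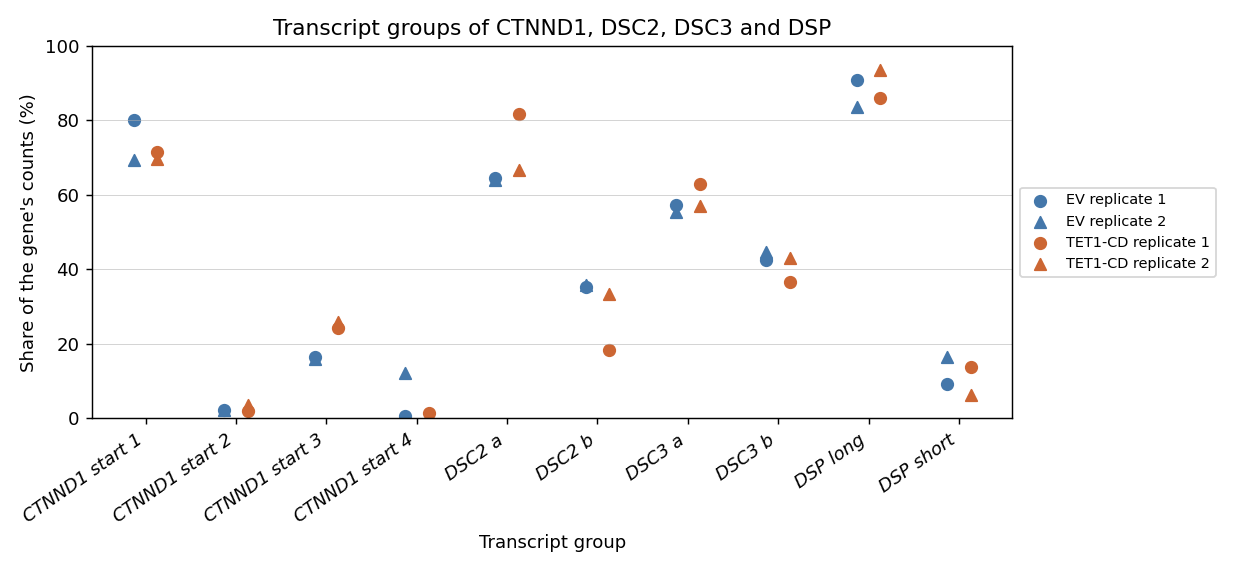
Share of the gene's counts (vertical axis, percent) held by transcripts with each CTNND1 start codon, by the a- and b-forms of DSC2 and DSC3, and by the long and short forms of DSP. Blue symbols are EV and orange symbols TET1-CD libraries. The third CTNND1 start is at 16.5% and 15.9% in EV and at 24.2% and 25.9% in TET1-CD cells, and the fourth start is at 12.1% in EV replicate 2 only.

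The genes that work with cadherins were examined in 4 lists, with 78 genes in all, of which 64 were tested. By edgeR, at an adjusted p under 0.05, 12 rose and 8 fell with TET1-CD, to be read against the 10.0% and 9.61% of all tested genes. AJAP1 and DCHS2, both among the 12, passed the filter on counts only through their TET1-CD libraries. Of 25 tested adherens junction partners, 7 rose and 1 fell, with a median log2 fold change of 0.07 where that of all genes was 0.00. AJAP1, a membrane protein of adherens junctions, was not counted with the empty vector and reached 215 and 233 counts with TET1-CD, at least 75.7-fold higher against a floor of 3 counts per library. PVRL1, which encodes nectin-1, rose from 153 and 96 to 338 and 344 counts (1.48 on the log2 scale, SE 0.15, edgeR adjusted p 1.22e-04). VCL, encoding vinculin, which binds α-catenin under tension, rose by 0.25 on the log2 scale (SE 0.06).

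Among 10 tested desmosome partners, 3 rose and 2 fell (10.0% and 9.61% of all genes), and the median log2 fold change was -0.15. PPL, encoding periplakin of the plakin family to which desmoplakin belongs, fell by 1.53 on the log2 scale (SE 0.24), from 76 and 81 to 24 and 30 counts. Of the filament genes, KRT7 rose by 0.34, KRT18 by 0.18 and KRT19 by 1.01 (standard errors 0.05, 0.05 and 0.17). KRT8 stood at -0.08 (SE 0.05) and did not pass the test, and KRT5 and KRT14 had too few counts for it. VIM fell by 0.39 (SE 0.06). Of 10 tested genes of the wider cadherin superfamily, 2 rose and 3 fell (10.0% and 9.61% of all genes), with a median of -0.08. The planar polarity cadherins CELSR1 and CELSR2 fell by 0.72 and 0.57 on the log2 scale (standard errors 0.06 and 0.06). CELSR3, of the same family, went the other way and rose by 0.41 (SE 0.10, edgeR adjusted p 0.0175). DCHS2, a dachsous cadherin that passed the filter only through its TET1-CD libraries, rose from 9 and 5 to 37 and 39 counts (2.44 on the log2 scale, SE 0.40). Of 19 tested genes for processing and trafficking of cadherins, none rose and 2 fell, the latter near the 9.61% of all genes that were lower (10.0% were higher), with a median of -0.09. The genes that fell were RAB11A, a GTPase of recycling endosomes, with a log2 fold change of -0.28, and ARF6, a GTPase of endocytosis, with -0.19. FYN, a Src-family kinase, stood at -0.37 on the log2 scale with an edgeR adjusted p of 0.0542.

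**Figure D5:**
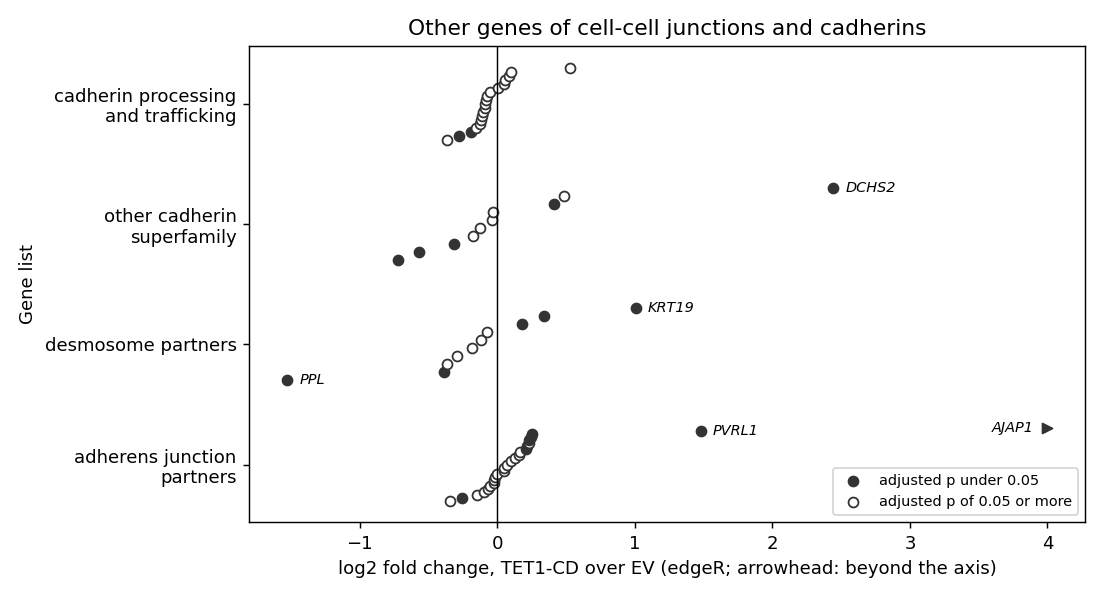
Log2 fold change of TET1-CD over EV cells (horizontal axis) for the tested genes of 4 lists (vertical axis), 1 point per gene. Filled points have an adjusted p under 0.05 by edgeR, and genes past a fold change of 2 are named. AJAP1, at 0 counts in EV cells, lies beyond the axis, and PPL is the only named gene on the left, at -1.53.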

How the data were processed

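RNAseq was performed by the authors on T24 cells, with 2 EV and 2 TET1-CD libraries prepared from total RNA. The labels name poly(A) selection or rRNA removal without saying which was used. The authors deposited, per library, 1 line for each transcript with an expected count, which is an estimated count of fragments that need not be whole, and an FPKM value. Per the labels, processing used cutadapt 1.9.1, HISAT2 2.0.1, HTSeq 0.6.1 and DESeq2 with hg19. The tool that made the estimated counts and the annotation release are not given in the sources used here.

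Expected counts were summed per gene identifier and rounded. The quasi-likelihood test of edgeR 4.0.16 (glmQLFit, glmQLFTest) was applied to TET1-CD against EV after TMM normalization and filterByExpr, without a block, in R 4.3.3, with Benjamini-Hochberg adjustment over all genes tested. TMM factors were 0.993 to 1.00. Standard errors were derived from the log2 fold change and F, and 95% intervals used the total degrees of freedom. The script was tested on simulated data. Counts of replicate libraries differed by more than sampling noise (chi-square per gene 6.45 in EV and 2.75 in TET1-CD cells). Alternatives were DESeq2 1.42.0, a replicate block, RLE factors, limma-voom (limma 3.58.1), omission of each library, a minimum of 10 counts throughout, no filter, plain library sizes, and FPKM ratios with a pseudocount of 0.1.

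The members and lists were chosen with earlier results of these data known. All tested members were described, and of each list the genes past a fold change of 2 and the 3 with the smallest p were named, with CTNNB1. CELSR3, KRT5, KRT8, KRT14 and KRT18 were added to complete their families. KRT17, CDH24 to CDH4 and plakophilin ratios, and the CTNND1 start codons were chosen after the values were seen.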

Additional observations from a re-analysis of the deposited data

How the results depend on the processing

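Under the alternatives, 189 of 213 recomputed values of the tested members kept their direction and their side of the threshold, or moved by less than the spread between libraries. PKP3 and CDH4 stayed past an adjusted p of 0.05 in every setting with a test. The number of members called higher at a fold change of 2 was 1, and it was 0 with DESeq2 and with 10 counts in every library, which removes CDH15, and 2 with no filter on low counts, which admits PKP1. Members lower at an adjusted p under 0.05 numbered 5 with no filter and 5 with a replicate block, since DSC3 and DSP were added. Without single libraries the counts ran from 0 to 2 for members called at that fold change, from 1 to 5 for members higher and from 1 to 5 for members lower. JUP and PKP1 entered without EV replicate 2, and most losses came without a TET1-CD library. Other junction genes numbered 4 to 15 higher and 3 to 17 lower without single libraries. Of these genes, 5 were lower with DESeq2 and 13 with no filter. For the alternatives other than DESeq2, the share of all genes called is not given here. The counts of members and of other junction genes under them therefore describe the settings and are no result about the genes. A fit with 1 library in a group assumes that this library varies like those of the other group. The median log2 fold change of the members was -0.0291 with 10 counts in every library, and DESeq2 called 3 member transcripts. TET1 had a log2 fold change of 4.81 as a ratio of FPKM. The sign turned for CDH10 without EV replicate 2 (0.12) and without TET1-CD replicate 2 (0.14, range -0.21 to 0.14 without single libraries), for DSC2 with library size only (0.0056) and without TET1-CD replicate 2 (0.055, range -0.0668 to 0.055), and for PKP2 without TET1-CD replicate 2 (range -0.0295 to 0.10), none of which passed the test. As FPKM ratios, which had no test, the sign also turned for CTNND1 (0.02) and CDH10 (0.02), and CDH15 had 1.66 and CDH5 0.06 on the log2 scale. Deviations of same-numbered libraries had a correlation of 0.00713 across genes, and the labels give the numbers no meaning beyond the name, so the replicate block was not used for the main values. For all other results the cause of a change was not tested.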
